A study of Mus musculus with 20 samples.

Results

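The genes described here carry glucose into cells (Slc2a1), store it as glycogen and release it again (Ppp1r3c, Gys1, Gbe1, Pygb and Pygm), turn pyruvate into lactate and move lactate between cells (Ldha, Ldhb and Slc16a1), or decide whether pyruvate enters mitochondrial oxidation (Pdk4). They were taken by name, with earlier results of these data known. All 10 listed genes had a probe set annotated to that single symbol, and they make up 10 of the 22180 genes tested. Expression was measured in mouse spinal cord with Affymetrix whole-transcript arrays, 1 array per sample, 20 arrays in all. The groups held 5 arrays each: Cx30GRko mice given dexamethasone (Dex), Cx30GRko mice given saline, control mice given Dex, and control mice given saline. Dex, a synthetic agonist of the glucocorticoid receptor, was injected intraperitoneally at 4 mg/kg, and the cord was taken 4 h later. All groups were labelled as C57BL/6J mice aged 6 to 10 weeks; arrays titled Tg were read as Cx30GRko and arrays titled wt as control. The name Cx30GRko stands for deletion of the glucocorticoid receptor gene Nr3c1 in cells that express connexin 30, in the cord mainly astrocytes. By that design neurons, oligodendrocytes, microglia and vessel cells would keep the receptor, which was not measured by cell type here. The sources used here do not say when the deletion was made or whether the controls carried Cre or the modified receptor allele. No pooling of animals was stated.

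Astrocytes surround brain and spinal cord vessels, take up glucose that crosses the endothelium, and hold nearly all of the glycogen of the adult central nervous system. Glycogen is built by glycogen synthase and the branching enzyme on scaffolds to which regulatory subunits bring protein phosphatase 1, and it is broken down by glycogen phosphorylase; the glucose units released can be turned into lactate and exported through monocarboxylate transporters. Glucocorticoids are known to raise glycogen stores in liver and to induce pyruvate dehydrogenase kinase 4 in several tissues, which limits the oxidation of pyruvate.

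All values below are log2 signals as the authors deposited them, normalised so that each array had a mean of 4.64. The deposited values were also centred within a set of 12 arrays (replicates 1 to 3) and a set of 8 arrays (replicates 4 and 5), called the first and the second set below, both holding every group in equal numbers; the labels do not mention these sets, so differences are given over all arrays and within each set. The second set was noisier, with a median residual SD over genes of 0.37, against 0.21 in the first set. Cx30GRko Dex replicates 4 and 5 stood apart, with a spread over probe sets (SD) of 1.95 and 1.81, against 1.66 to 1.71 on the other 18 arrays. Results that rest on them are given with and without them. The centring had included them, so leaving them out does not undo their pull on the other 6 arrays of the second set. The Cx30GRko Dex group then comes from the first set alone, while the other groups keep both sets. Such values are therefore not free of these arrays, whereas differences within the first set do not use them. Probe set signals on such arrays do not rank the levels of different genes, so each gene is compared only with itself.

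Defining markers had mean signals of 8.04 (Gfap) and 8.86 (Aqp4) for astrocytes, 8.03 (Mbp) for oligodendrocytes, 10.32 (Snap25) for neurons, 5.50 (Chat) for motor neurons and 4.15 (Cldn5) for endothelium, and of 4.01 (Ckm) and 5.67 (Acta1) for skeletal muscle and 3.04 (Adipoq) for fat. As signals of different probe sets are not ranked, they are given as values and leave the tissue label unchecked. The targeted receptor gene did not check the genotype labels: Nr3c1 ranged over 6.08 to 7.79 in Cx30GRko Dex cords, 6.01 to 6.49 in Cx30GRko saline cords, 6.11 to 6.30 in control Dex cords and 5.40 to 6.58 in control saline cords. Its Cx30GRko minus control difference was -0.02 ± 0.26 (SE) under saline (limma adjusted p = 0.995), with a 95% interval of -0.56 to 0.53. Whole cord RNA mixes deleted and intact cells, and fewer cells of a type and less RNA per cell cannot be told apart in it.

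The promoters of Slc2a1 and Ppp1r3c are printed because these genes had the largest mean Dex differences of the 10. Both windows come from RefSeq (build GRCm38.p6), run 5′ to 3′ in the sense of the gene from 250 bases before to 50 bases after the annotated start, and carry in capitals every match on either strand to ACGTG, the core of the element bound by hypoxia-inducible factors. The Slc2a1 window lies at chr4:119108495-119108794 on the plus strand and the Ppp1r3c window at chr19:36736555-36736854 on the minus strand.
Slc2a1: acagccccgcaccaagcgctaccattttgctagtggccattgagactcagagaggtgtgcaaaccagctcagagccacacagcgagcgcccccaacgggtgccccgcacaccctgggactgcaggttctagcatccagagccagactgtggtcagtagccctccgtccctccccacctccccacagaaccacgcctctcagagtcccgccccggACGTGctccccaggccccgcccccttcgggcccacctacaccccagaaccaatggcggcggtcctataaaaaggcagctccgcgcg
Ppp1r3c: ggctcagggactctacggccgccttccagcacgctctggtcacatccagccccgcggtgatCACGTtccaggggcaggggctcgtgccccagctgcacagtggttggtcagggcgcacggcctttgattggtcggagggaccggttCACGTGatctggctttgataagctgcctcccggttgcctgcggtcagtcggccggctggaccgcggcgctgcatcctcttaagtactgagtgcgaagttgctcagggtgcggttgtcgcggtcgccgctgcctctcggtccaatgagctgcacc
Slc2a1 has 1 match, whose first base lies 36 bases before the start (position -36), and Ppp1r3c has matches that begin at positions -189, -104 and -103, the last pair being both strands of 1 CACGTG. RefSeq windows were found for all 10 genes (11 windows, because Ldha has 2), and ACGTG occurred in those of 6 genes (Slc2a1, Ppp1r3c, Pygb, Pygm, Ldha and Slc16a1), against 19.6% of all 32851 windows of this length. CACGTG, which contains ACGTG, occurred in 3 of the genes (Ppp1r3c, Ldha and Slc16a1), against 7.15% of windows. The half-site of the glucocorticoid receptor, AGAACA, occurred on neither strand in a window of the 10 genes, against 19.0% of all windows. The same held for the palindrome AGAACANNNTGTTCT (3 of all windows, 0.0091%) and for the FoxO site GTAAACA (3.65%). These are matches of letters in a short window and say nothing of binding elsewhere.

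**Figure D1:**
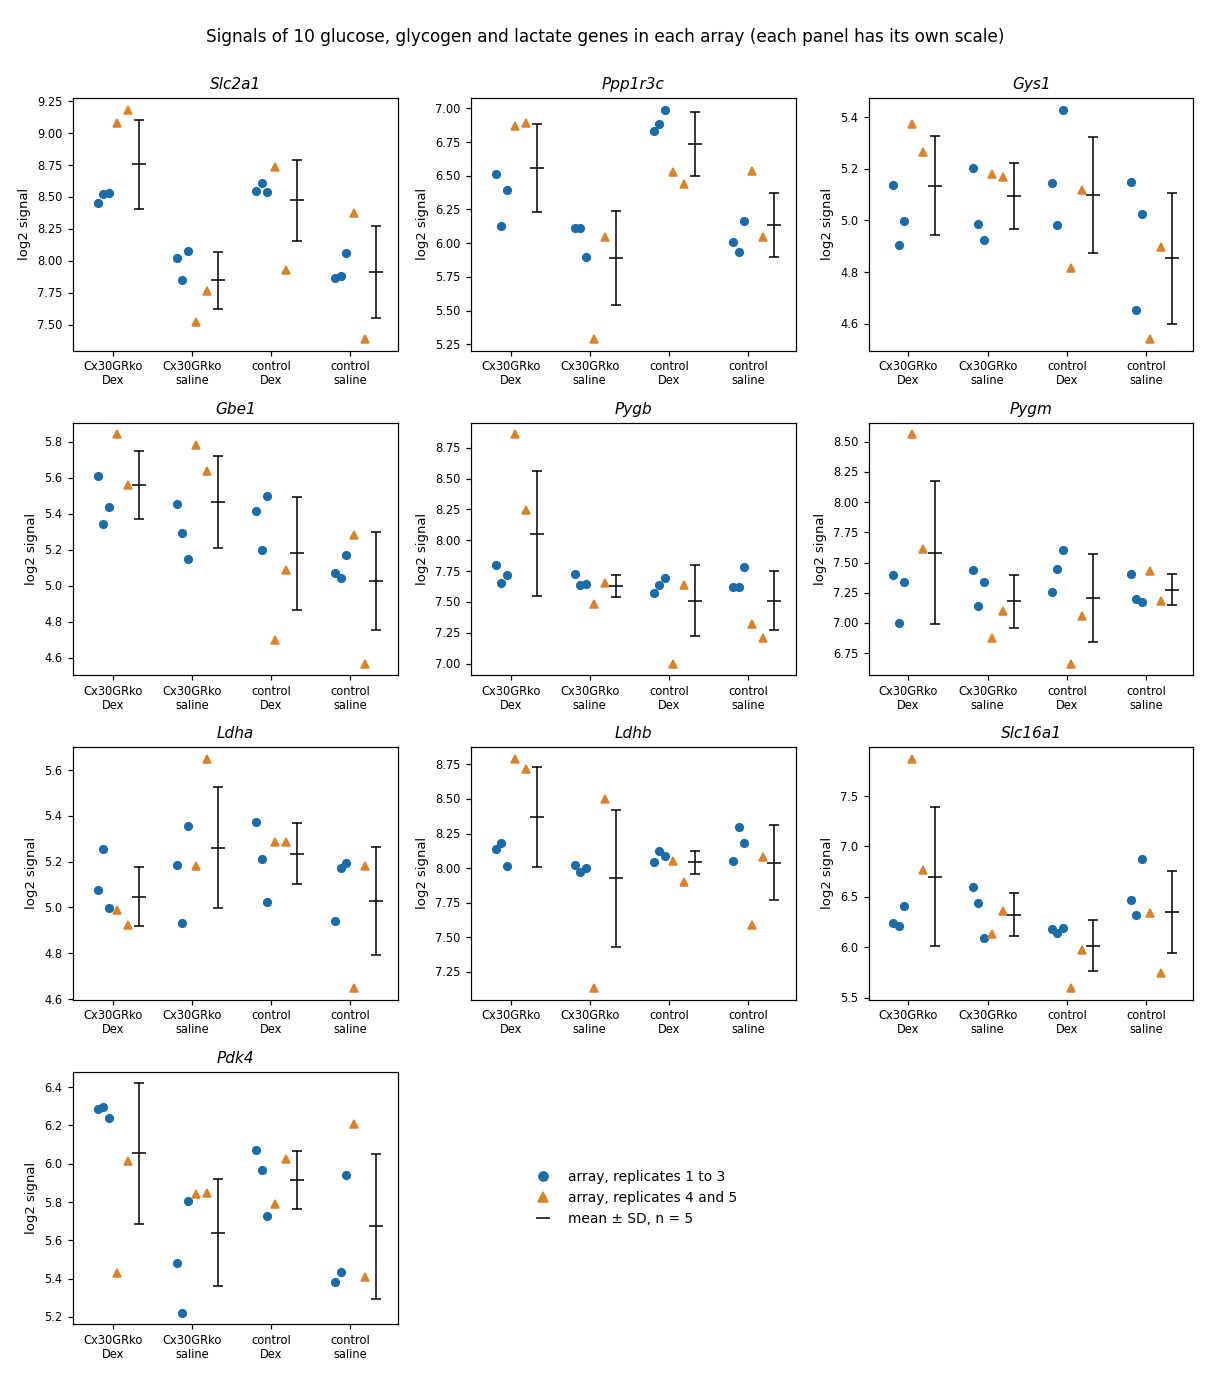
Log2 signal (vertical axis) of the 10 genes, 1 panel each, in the 4 groups (horizontal axis); each point is an array, marked by array set, and the bar is the group mean with its SD (n = 5). Slc2a1 and Ppp1r3c in Cx30GRko Dex cords lie wholly above Cx30GRko saline cords, as do 1.05% of all genes. Pygb, Pygm and Slc16a1 show 1 or 2 high arrays in the Cx30GRko Dex group.

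Glucose uptake was represented by Slc2a1, which encodes GLUT1, the glucose transporter of brain endothelium and astrocytes, and which lies at chromosome 4, 119108745 to 119137330 (GRCm38.p6). It was higher after Dex, and it was the only gene of the 10 that passed the test for the mean Dex effect over both genotypes. The rise was 0.73 ± 0.14 log2 units (SE; 95% interval 0.45 to 1.02), a 1.66-fold change, with a limma adjusted p of 0.0285 over all 22180 genes. In that comparison 33 genes were called (0.149% of all genes), 29 of them higher (0.131%).

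Slc2a1 signals were 8.45, 8.52, 8.53, 9.08 and 9.18 in Cx30GRko Dex cords and 8.03, 7.85, 8.07, 7.52 and 7.77 in Cx30GRko saline cords, in the order of replicates 1 to 5. They were 8.55, 8.61, 8.54, 8.74 and 7.93 in control Dex cords and 7.86, 7.88, 8.06, 8.37 and 7.39 in control saline cords. The Cx30GRko groups did not overlap, as was the case for 1.05% of all genes in that direction. The control groups did: Dex replicate 5 (7.93) lay below saline replicates 3 and 4 (8.06 and 8.37), while the other 4 Dex arrays lay above every saline array. Set against the saline mean of its own genotype and array set, every Dex array was higher, 5 of 5 in Cx30GRko mice and 5 of 5 in control mice. How many of all genes had such counts was not taken, here or for the genes below. In the first set all 6 Dex arrays lay above all 6 saline arrays, which was so for 0.685% of genes.

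Taken by genotype, the Dex difference of Slc2a1 was 0.91 ± 0.20 in Cx30GRko mice (1.88-fold, adjusted p = 0.238) and 0.56 ± 0.20 in control mice (1.47-fold, adjusted p = 0.776), and neither passed the limma test. In Cx30GRko mice it was 0.52 ± 0.10 in the first set and 1.49 ± 0.41 in the second set. In control mice it was 0.63 ± 0.10 in the first set, where it passed the test for that set alone (adjusted p = 0.0382; 38 genes or 0.171% called), and 0.45 ± 0.41 in the second set. The difference between the genotypes' Dex effects was 0.35 ± 0.28 with a 95% interval of -0.23 to 0.93 (adjusted p = 0.866). That difference was -0.11 ± 0.15 in the first set, within its standard error of 0, and 1.04 ± 0.58 in the second set. The mean Dex effect was 0.58 ± 0.07 in the first set alone (adjusted p = 0.0049; 0.455% of genes called) and 0.97 ± 0.29 in the second set alone (adjusted p = 0.373). With the array set as a block it stayed called (adjusted p = 0.047; 0.108% of genes). With the replicate number as a block, a pairing that no label gives, it was not called (limma adjusted p = 0.0813). Without Cx30GRko Dex replicates 4 and 5 it was 0.61 and no longer passed (adjusted p = 0.122).

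With 1 array left out at a time the mean Dex effect on Slc2a1 was 0.67 to 0.80 and passed the test in 11 of 20 cases. It did not pass without Cx30GRko Dex replicate 5, Cx30GRko saline replicate 2 or 4, control Dex replicate 1, 2, 3 or 4, or control saline replicate 1 or 2, where the adjusted p was at most 0.076.

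The call also depended on which probe set stands for the gene. Slc2a1 was the only one of the 10 genes with more than 1 probe set, and its dimmer one gave signals of 3.80 to 4.36 in Cx30GRko Dex cords, 3.51 to 4.46 in Cx30GRko saline cords, 3.97 to 4.45 in control Dex cords and 3.75 to 4.34 in control saline cords. The mean Dex difference of the dimmer probe set was 0.14 ± 0.12 (adjusted p = 0.766 among all probe sets), and in the same test the bright one gave an adjusted p of 0.0805. With the mean of both probe sets in place of the brighter one, the mean Dex effect was 0.44 (adjusted p = 0.104). The probe sequences were not used here, so the parts of the transcript that each probe set covers are not given.

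Slc2a1 is also made by endothelial cells. The list of 16 endothelial markers, all measured, had 0 genes called for the mean Dex effect and a median difference of -0.07, against 0.02 for all genes. Its mean signal ranged over 5.55 to 6.43 in Cx30GRko Dex cords, 5.59 to 5.82 in Cx30GRko saline cords, 5.50 to 5.68 in control Dex cords and 5.58 to 5.90 in control saline cords. The highest of these, 6.43, was Cx30GRko Dex replicate 4; the astrocyte list was also highest on that array, as given below.

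**Figure D2:**
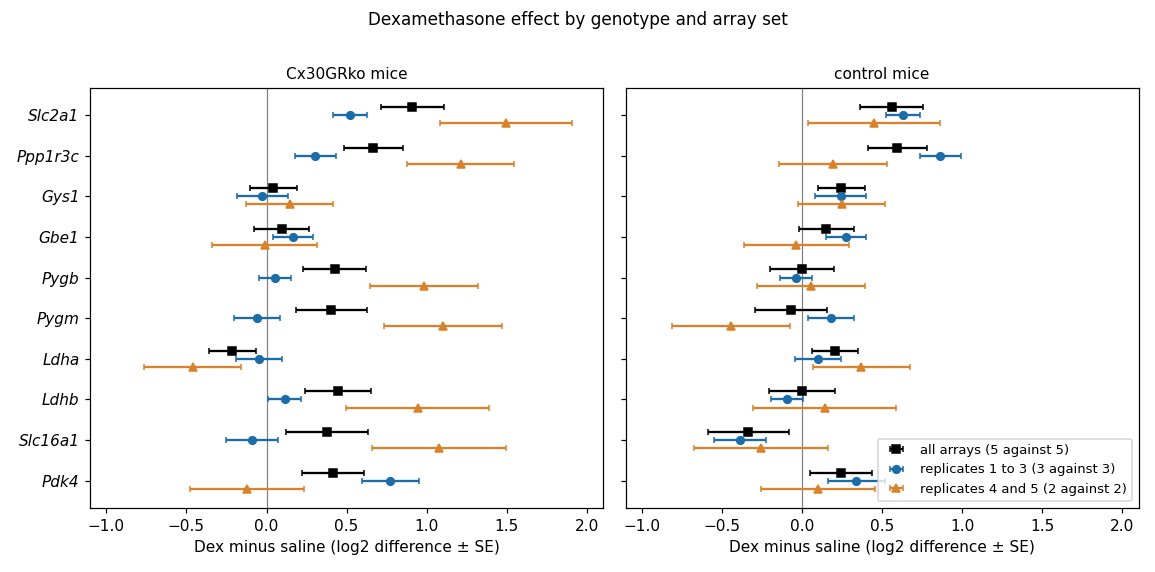
Dex minus saline difference (log2 units, horizontal axis) of each of the 10 genes, with its standard error, in Cx30GRko mice and in control mice, over all arrays and within replicates 1 to 3 and replicates 4 and 5. The estimates of Slc2a1 and Ppp1r3c are above 0 in both genotypes and both sets, although Ppp1r3c in control mice in replicates 4 and 5 (0.19 ± 0.34) is within its standard error of 0. The largest differences of both (1.49 and 1.21) are in Cx30GRko mice in replicates 4 and 5, as are those near 1 of Pygb, Pygm, Ldhb and Slc16a1.

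Of the glycogen genes, Ppp1r3c had the largest Dex difference. It encodes protein targeting to glycogen, a subunit that brings protein phosphatase 1 to glycogen synthase and phosphorylase and so favours glycogen storage, and lies at chromosome 19, 36731731 to 36736604. Its signals were 6.52, 6.12, 6.39, 6.87 and 6.89 in Cx30GRko Dex cords and 6.11, 6.11, 5.90, 5.29 and 6.05 in Cx30GRko saline cords. They were 6.83, 6.88, 6.99, 6.53 and 6.44 in control Dex cords and 6.01, 5.94, 6.17, 6.53 and 6.04 in control saline cords. The Cx30GRko groups did not overlap, as for 1.05% of all genes in that direction, although the lowest Dex array (6.12) and the highest saline arrays (6.11) nearly met. In control mice saline replicate 4 reached the level of the lower Dex arrays. All 5 Dex arrays of each genotype were above their set's saline mean. In a single genotype the same held for Gys1 (5 of 5 in control mice) and Ldhb (5 of 5 in Cx30GRko mice).

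The mean Dex effect on Ppp1r3c was 0.63 ± 0.13 (1.55-fold, 95% interval 0.36 to 0.90) and just missed the limma threshold (adjusted p = 0.0559). The Dex difference was 0.67 ± 0.19 in Cx30GRko mice (adjusted p = 0.448) and 0.60 ± 0.19 in control mice (adjusted p = 0.61). The interaction was 0.07 ± 0.26, with a 95% interval of -0.47 to 0.62 that leaves room for a difference of either sign. Within the first set alone the mean effect was 0.58 ± 0.09 and passed the test (adjusted p = 0.0137), as did the control Dex difference of 0.86 ± 0.13 (adjusted p = 0.0178).

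The array sets gave opposite orders of the genotypes for Ppp1r3c. In the first set its Dex difference was 0.30 ± 0.13 in Cx30GRko mice, against 0.86 ± 0.13 in control mice, an interaction of -0.56 ± 0.18 (adjusted p = 0.916). In the second set it was 1.21 ± 0.34 in Cx30GRko mice, against 0.19 ± 0.34 in control mice, an interaction of 1.02 ± 0.47 (adjusted p = 0.701). Neither passed the test within its set. Without Cx30GRko Dex replicates 4 and 5 the mean Dex effect was 0.52 (adjusted p = 0.234).

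The enzymes that build glycogen had smaller differences. Gys1, the glycogen synthase of tissues other than liver, averaged 5.14 ± 0.19 in Cx30GRko Dex cords, 5.09 ± 0.13 in Cx30GRko saline cords, 5.10 ± 0.23 in control Dex cords and 4.85 ± 0.25 in control saline cords (SD, n = 5 each). Its mean Dex effect was 0.14 ± 0.10 (adjusted p = 0.695), and the 4 groups overlapped. Gbe1, the branching enzyme, averaged 5.56 ± 0.19 in Cx30GRko Dex cords and 5.46 ± 0.26 in Cx30GRko saline cords, against 5.18 ± 0.32 in control Dex cords and 5.03 ± 0.27 in control saline cords. Its largest differences were those between genotypes: the Cx30GRko minus control difference was 0.38 ± 0.17 under Dex (adjusted p = 0.439) and 0.44 ± 0.17 under saline (adjusted p = 0.914). Neither passed the test, and both were larger in the second set (0.81 and 0.78) than in the first set (0.09 and 0.21). Its mean Dex effect was 0.12 ± 0.12 (adjusted p = 0.773).

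The phosphorylases, which release glucose units from glycogen, showed a pattern that rested on few arrays. Pygb, the brain isoform, had signals of 7.79, 7.65, 7.72, 8.86 and 8.24 in Cx30GRko Dex cords and 7.73, 7.64, 7.65, 7.49 and 7.65 in Cx30GRko saline cords. It had 7.57, 7.64, 7.70, 7.00 and 7.64 in control Dex cords and 7.62, 7.62, 7.78, 7.32 and 7.20 in control saline cords. The first set lay between 7.57 and 7.79 in all 4 groups, and the high values were Cx30GRko Dex replicates 4 and 5. The Dex difference of Pygb in Cx30GRko mice was 0.42 ± 0.20 over all arrays (adjusted p = 0.507), 0.05 ± 0.10 in the first set and 0.98 ± 0.34 in the second set. It was 0.09 without those 2 arrays. In control mice it was 0.00 ± 0.20.

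Pygm is the isoform named for skeletal muscle and is also made by astrocytes. Its signals were 7.39, 7.00, 7.34, 8.56 and 7.61 in Cx30GRko Dex cords and 7.43, 7.14, 7.34, 6.88 and 7.10 in Cx30GRko saline cords. They were 7.26, 7.45, 7.61, 6.66 and 7.06 in control Dex cords and 7.40, 7.19, 7.17, 7.43 and 7.18 in control saline cords. Cx30GRko Dex replicate 4 was far above the rest, and replicate 5 (7.61) was level with the highest of the other 18 arrays (7.61). The Dex difference of Pygm was 0.40 ± 0.22 in Cx30GRko mice (adjusted p = 0.54; 0.07 without Cx30GRko Dex replicates 4 and 5) and -0.07 ± 0.22 in control mice (adjusted p = 0.995). The mean signal of 12 skeletal muscle markers was 3.89 on the array with the high Pygm value, against 4.29 to 5.31 on the 18 arrays other than Cx30GRko Dex replicates 4 and 5. Among the muscle markers, Acta1 ranged over 3.64 to 7.02 over all arrays.

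Lactate dehydrogenase interconverts pyruvate and lactate, and its subunits come from Ldha, which is favoured in tissue that makes lactate, and Ldhb, which is favoured in tissue that uses it. Ldha averaged 5.05 ± 0.13 in Cx30GRko Dex cords, 5.26 ± 0.26 in Cx30GRko saline cords, 5.24 ± 0.13 in control Dex cords and 5.03 ± 0.24 in control saline cords (SD, n = 5 each). The Dex difference of Ldha was thus -0.21 ± 0.15 in Cx30GRko mice and 0.21 ± 0.15 in control mice (adjusted p = 0.612 and 0.953). Its interaction was -0.42 ± 0.21, with a 95% interval of -0.85 to 0.01 (adjusted p = 0.846); it was -0.15 in the first set and -0.83 in the second set. Ldha was the only one of the 10 genes with a lower mean signal in Cx30GRko Dex than in Cx30GRko saline cords.

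Ldhb signals were 8.14, 8.18, 8.02, 8.79 and 8.72 in Cx30GRko Dex cords and 8.02, 7.97, 8.0, 7.13 and 8.50 in Cx30GRko saline cords. They were 8.05, 8.12, 8.09, 8.05 and 7.90 in control Dex cords and 8.05, 8.30, 8.18, 7.58 and 8.08 in control saline cords. The Dex difference was 0.44 ± 0.21 in Cx30GRko mice (adjusted p = 0.507; 0.11 in the first set, 0.94 in the second set) and 0.00 ± 0.21 in control mice. In replicates 4 and 5 of the Cx30GRko mice a low saline array (7.13) stands beside high Dex arrays. Without Cx30GRko Dex replicates 4 and 5 the difference was 0.19.

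Slc16a1 encodes MCT1, the lactate and pyruvate transporter of endothelium, astrocytes and oligodendrocytes. Its signals were 6.24, 6.21, 6.41, 7.87 and 6.77 in Cx30GRko Dex cords and 6.60, 6.44, 6.09, 6.13 and 6.36 in Cx30GRko saline cords. They were 6.18, 6.14, 6.20, 5.60 and 5.98 in control Dex cords and 6.47, 6.33, 6.88, 6.34 and 5.75 in control saline cords. Every Cx30GRko Dex array was above every control Dex array, as for 0.721% of genes, although the nearest arrays, at 6.21 and 6.20, nearly met. The Cx30GRko minus control difference under Dex was 0.68 ± 0.25 (adjusted p = 0.423), made of 0.11 ± 0.16 in the first set and 1.53 ± 0.42 in the second set, and was 0.27 without Cx30GRko Dex replicates 4 and 5. With Dex, Slc16a1 differed by 0.38 ± 0.25 in Cx30GRko mice and by -0.33 ± 0.25 in control mice (adjusted p = 0.611 and 0.959). None of the 5 control Dex arrays (0 of 5) was above the control saline mean of its set. The interaction of 0.71 ± 0.36 did not pass the test (95% interval -0.04 to 1.46, adjusted p = 0.846) and was 0.29 ± 0.23 in the first set.

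Markers of meningeal fibroblasts and of Schwann cells and peripheral roots had median Dex differences of the same sign as Slc16a1 in each genotype, with 0 genes called. So did endothelial (0.11 in Cx30GRko, -0.06 in control mice), microglia (0.24 and -0.11) and erythrocyte markers (0.18 and -0.17). Astrocyte, oligodendrocyte, neuron, muscle and adipocyte markers did not. In the first set Slc16a1 was -0.09 in Cx30GRko mice, against medians of 0.31 for meningeal and 0.13 for Schwann cell and root markers. The mean of the 10 meningeal markers ranged over 4.5 to 6.35 in Cx30GRko Dex cords, 4.55 to 5.64 in Cx30GRko saline cords, 4.44 to 5.70 in control Dex cords and 5.31 to 6.26 in control saline cords. Their median Dex difference was 0.35 in Cx30GRko mice (9 of 10 above 0) and -0.52 in control mice (9 of 10 below 0), and their median interaction was 0.87 (10 of 10 above 0), with 1.12 in the first set and 0.53 in the second set. The mean of the 6 Schwann cell and root markers measured of 8 ranged over 5.55 to 7.14 in Cx30GRko Dex cords, 5.56 to 6.57 in Cx30GRko saline cords, 5.45 to 6.79 in control Dex cords and 6.11 to 7.35 in control saline cords. Their median Dex difference was 0.46 in Cx30GRko mice and -0.62 in control mice, and their median interaction was 0.94 (6 of 6 above 0), with 1.04 in the first set and 0.66 in the second set. The part of these cells in the differences of Slc16a1 was not tested.

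Pdk4 encodes pyruvate dehydrogenase kinase 4, which switches off the entry of pyruvate into the citric acid cycle. Its signals were 6.29, 6.29, 6.24, 5.43 and 6.02 in Cx30GRko Dex cords and 5.48, 5.22, 5.80, 5.84 and 5.85 in Cx30GRko saline cords. They were 6.07, 5.97, 5.73, 5.79 and 6.03 in control Dex cords and 5.38, 5.43, 5.94, 6.21 and 5.41 in control saline cords. Dex arrays were above their set's saline mean in 4 of 5 cases in each genotype, as for Gbe1, and both pairs of groups overlapped. The exception in Cx30GRko mice was replicate 4, the lowest array of its group for Pdk4 although it was the highest of all arrays for other genes of the 10.

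The mean Dex effect on Pdk4 was 0.33 ± 0.14 (1.26-fold) and did not pass the test (adjusted p = 0.541). It was 0.56 ± 0.13 in the first set (adjusted p = 0.12) and -0.01 ± 0.25 in the second set. In the first set the difference was 0.77 ± 0.18 in Cx30GRko mice and 0.34 ± 0.18 in control mice. Over all arrays it was 0.41 ± 0.19 and 0.24 ± 0.19 in the same order, and the interaction of 0.17 ± 0.27 had a 95% interval of -0.40 to 0.74.

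**Figure D3:**
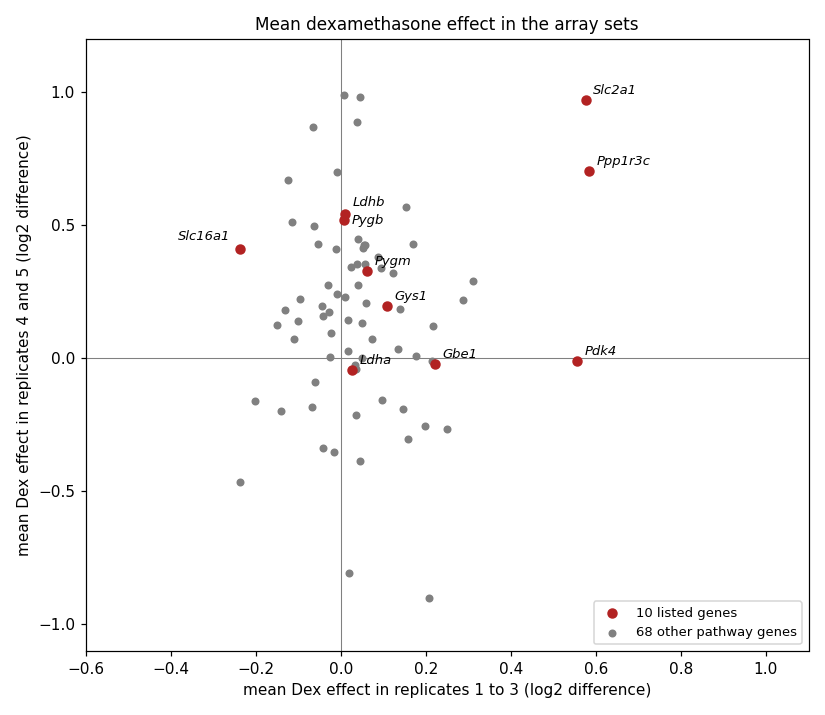
Mean Dex effect of each of the 10 genes in replicates 1 to 3 (horizontal axis, log2 units) against the same in replicates 4 and 5 (vertical axis, log2 units), with the 68 other pathway genes in grey. Slc2a1 (0.58 and 0.97) and Ppp1r3c (0.58 and 0.70) are well above 0 on both axes, Pdk4 (0.56 and -0.01) only on the horizontal axis, and Pygb (0.01 and 0.52) and Ldhb (0.01 and 0.54) only on the vertical axis.

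Taking the 10 genes by comparison, 0 of 10 were called for Dex against saline in Cx30GRko mice, where 4 genes in all were called (0.018%), and 0 of 10 in control mice, where 3 were called (0.0135%). No gene at all was called by limma for Cx30GRko against control under Dex, under saline, or for the interaction. At an unadjusted p under 0.05 these 3 comparisons held 11.2%, 5.25% and 5.65% of all genes. Counting only differences above 0 with an unadjusted p under 0.05, the genotype comparison under Dex held 3 of the 10 genes (Slc16a1, Pygb and Gbe1; 6.74% of all genes), that under saline 1 (Gbe1; 2.31%) and the interaction 0 (2.91%). The Dex comparison held 5 in Cx30GRko mice (Slc2a1, Ppp1r3c, Pygb, Ldhb and Pdk4; 5.79% of all genes), 2 in control mice (Slc2a1 and Ppp1r3c; 2.8%) and 3 for the mean Dex effect (Slc2a1, Ppp1r3c and Pdk4; 5.15%).

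The Dex difference was above 0 for 9 of 10 genes in Cx30GRko mice (53.7% of all genes), 8 of 10 in control mice (52.3%) and 9 of 10 in the mean over both genotypes (54.1%). The genotype difference was above 0 for 8 of 10 under Dex (52.1%) and 4 of 10 under saline (51.3%), and the interaction for 7 of 10 (52.8%). The median Dex difference over the 10 was 0.41 in Cx30GRko mice and 0.18 in control mice, against 0.02 and 0.01 over all genes. All 10 had mean signals above the median of gene means (4.68). Over the genes at or above that cutoff the median Dex differences were 0.08 and 0.02. The genotype difference had a median of 0.30 over the 10 genes under Dex and -0.03 under saline. Over the genes at or above the cutoff it was 0.07 and 0.02. All of these comparisons share arrays: the Dex differences and the genotype differences are made from the same 4 groups.

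The median in Cx30GRko mice depended on the array set, being 0.08 in the first set and 0.96 in the second set, and it was 0.08 over all arrays but Cx30GRko Dex replicates 4 and 5. In control mice the median was 0.21 in the first set and 0.12 in the second set. The median interaction was 0.26 over all arrays, -0.11 in the first set and 0.86 in the second set, so it changed sign between the sets. The median genotype difference under Dex was -0.02 in the first set and 0.79 in the second set.

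**Figure D4:**
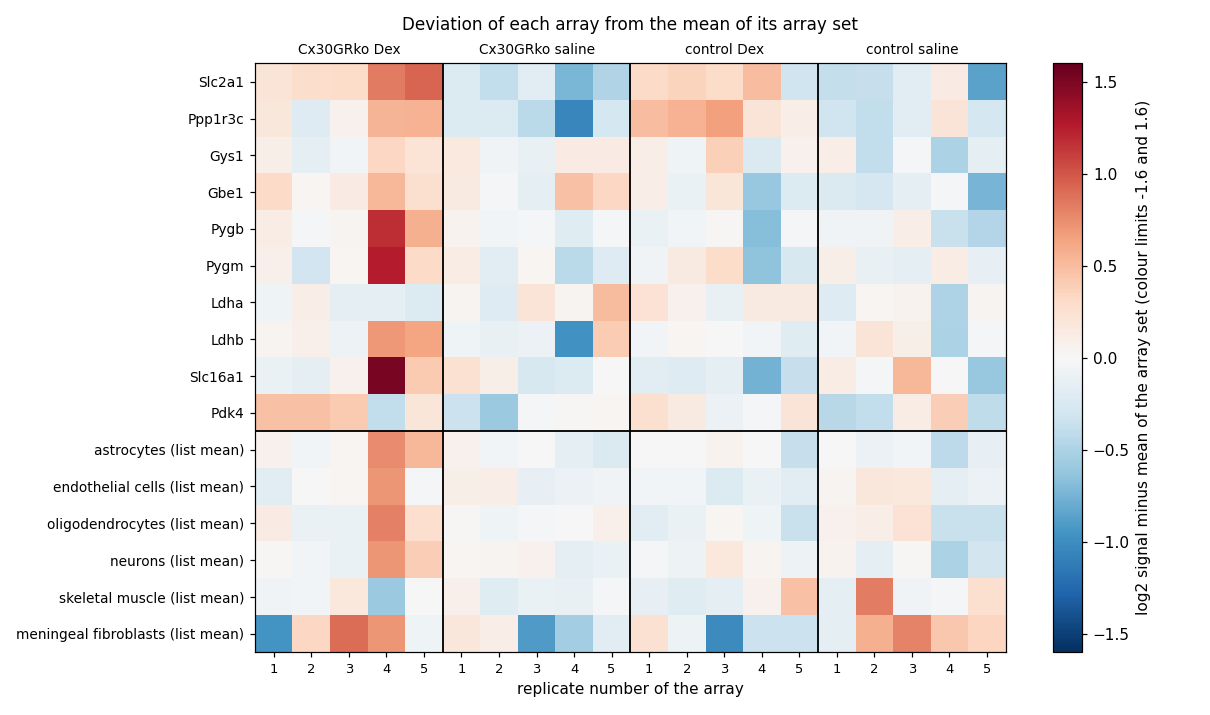
Heat map of each array's deviation (log2 units, colour scale) from the mean of its array set, with the 10 genes and, below them, 6 cell marker lists as rows and the arrays as columns in groups, replicates 1 to 5 within each. The darkest high cells of the 10 genes stand in Cx30GRko Dex replicate 4 (Slc16a1, Pygm and Pygb). That array is also high for the astrocyte, neuron, oligodendrocyte, endothelial and meningeal fibroblast lists and low for the skeletal muscle list. Slc2a1 is high along most Dex arrays of both genotypes.

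Cx30GRko Dex replicate 4 had the highest signal of all 20 arrays for 5 of the 10 genes (Gbe1, Pygb, Pygm, Ldhb and Slc16a1), as it had for 18.6% of all genes, and the lowest for 0 of 10, against 12.3% of all genes. Replicates 4 and 5 of that group together held the highest pair of signals for 4 of the 10 (Slc2a1, Pygb, Pygm and Ldhb), against 9.01% of all genes. These shares are over bright and dim genes alike, whereas all 10 genes lay above the median of gene means (4.68). Markers of several cell types were high on the same arrays. The mean of the 16 astrocyte markers was 8.04 in replicate 4 and 7.80 in replicate 5, against 6.86 to 7.34 on the other 18 arrays. The mean of the 12 neuron markers was 8.43 and 8.11, against 7.21 to 7.89. The mean of the 9 oligodendrocyte markers measured of 10 was 8.62 and 8.10, against 7.46 to 8.06. The endothelial mean was 6.43 in replicate 4 and, in replicate 5, 5.68, inside the 5.50 to 5.90 of the other arrays. The microglia mean (5.40 and 5.69) lay inside the 5.13 to 5.87 of the other 18 arrays. The meningeal mean (6.16 and 5.39) lay inside their 4.44 to 6.35. The skeletal muscle mean, as given for Pygm, was lowest in replicate 4, and so was the adipocyte mean (7 of 8 measured), at 3.28 against 3.49 to 4.16 on the other 18 arrays.

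By group, the astrocyte mean ranged over 7.23 to 8.04 in Cx30GRko Dex cords, 7.05 to 7.34 in Cx30GRko saline cords, 6.91 to 7.33 in control Dex cords and 6.86 to 7.28 in control saline cords. In Cx30GRko mice 15 of the 16 astrocyte markers had a Dex difference above 0 (0 called), with a median of 0.32 over all arrays, 0.03 in the first set and 0.76 in the second set, and 0.08 without Cx30GRko Dex replicates 4 and 5. In control mice the median was 0.07. No marker was called in any comparison. With quantile normalization again, the median Dex difference of the 10 genes in Cx30GRko mice was 0.22, and with median and SD scaling 0.31, against 0.41 as deposited. The median genotype difference under Dex was then 0.11 and 0.18, against 0.30. In control mice the median Dex difference was 0.19 in both, against 0.18. The part of cell composition and of these arrays' wider signal spread in the differences of Pygb, Pygm, Ldhb and Slc16a1 was not tested.

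Further genes of the pathway passed the test in no comparison. Of 77 further genes of glucose uptake and glycolysis, glycogen, lactate transport and pyruvate entry, 68 were measured, and 0 were called in any of the 6 comparisons. For the mean Dex effect 50 of the 68 were above 0 (54.1% of all genes), 5 were higher and 1 lower at an unadjusted p under 0.05 (8.64% of all genes in either direction), and the median was 0.09 over all arrays, 0.03 in the first set and 0.18 in the second set. By list, the number above 0 was 20 of 26 for glucose uptake and glycolysis, 16 of 21 for glycogen, 5 of 8 for lactate and monocarboxylate transport and 9 of 13 for pyruvate entry.

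The largest differences in the list above 0 were those of Pdp1, a phosphatase that reactivates pyruvate dehydrogenase (0.42 ± 0.22), Pfkm, the muscle-type phosphofructokinase (0.40 ± 0.22), and Gaa, the lysosomal enzyme that degrades glycogen (0.38 ± 0.20). In the first set these 3 genes had differences of 0.05, 0.01 and 0.04. The largest below 0 were those of Eno3, the muscle enolase (-0.33 ± 0.12), Ppp1r3b, a further glycogen-targeting subunit of protein phosphatase 1 (-0.31 ± 0.21), and Hkdc1, a hexokinase-like protein (-0.24 ± 0.20). Eno3 was below 0 in both sets (-0.24 and -0.46), whereas Ppp1r3b and Hkdc1 were above 0 in the first set (0.02 and 0.21). None of these 6 passed the limma test, with adjusted p values between 0.468 and 0.742.

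Across the 20 arrays the signals of Slc2a1 and Ppp1r3c were alike, with a Pearson r of 0.81 (0.80 in the first set, 0.85 in the second set, and 0.77 without Cx30GRko Dex replicates 4 and 5). These correlations are descriptions over arrays that share groups and array sets. Pygb and Slc16a1 had an r of 0.90, which was 0.48 in the first set and 0.72 without the 2 arrays. For Pygb and Pygm it was 0.84, 0.19 in the first set and 0.52 without the 2 arrays. Slc2a1 and Pdk4 had an r of 0.39 over all arrays, 0.82 in the first set and 0.11 in the second set.

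Among all 22180 genes, the closest in pattern to Slc2a1 over the 20 arrays were Klf9 (r = 0.89, and 0.91 in the first set), Atp6v0e (0.88) and Idh3g (0.87). Closest to Ppp1r3c were Per1 (0.82, and 0.69 in the first set), Snora78 (0.81) and Ptpn11 (0.81), and closest to Pdk4 were Lamc1 (0.79), Hsd3b3 (0.78) and A530053G22Rik (0.73). Pygb was closest to Miga1 (0.97), Nalcn (0.96) and Ppip5k1 (0.96), but its r with Miga1 was -0.14 in the first set and 0.99 in the second set. The closest genes were Camta2, Map11 and Fam160b1 for Pygm (0.91 to 0.94), Rps6, Psmb7 and Chtf8 for Ldhb (0.93 to 0.95), and Clcn3, Itpkb and Fut8 for Slc16a1 (0.91 to 0.94). They were Usp53, Olfr910 and Nell2 for Gys1 (0.78 to 0.82), Chic1, Phf3 and Med26 for Gbe1 (0.83 to 0.84), and Pou2af1, BC021767 and Ankzf1 for Ldha (0.76 to 0.81).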

How the data were processed

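RNA of 20 mouse spinal cords was hybridised to Affymetrix whole-transcript arrays after labelling with the Affymetrix/Ambion WT Expression kit, per the labels' protocols. The authors deposited 1 table of log2 probe set values, used as it stood; oligo is named in the submitters' processing notes, and its version and the normalization method are not given in the sources used here. Before deposit the values had been centred within 2 array sets (largest difference of set means 4.5e-09). Of 41345 probe sets, 23521 had 1 gene symbol in the platform annotation, 1814 several and 16010 none. For each of the 22180 genes the probe set with the highest mean was tested, without a filter; 1082 genes had several.

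Group means over all 20 arrays were fitted with limma 3.58.1 in R 4.3.3 (16 residual and 5.66 prior degrees of freedom, no block), with two-sided p-values adjusted by Benjamini-Hochberg over all genes in each of 6 comparisons and called under 0.05. The centring used 1 degree of freedom, which the fit without a block does not count and the fits with the array set or the replicate number as a block do. Per the study's design each group held 5 mice, and their number limits the precision. The limma code was tested on simulated data. The 10 genes and all gene lists were chosen with earlier results of these data known. Named beyond the 10 were the 3 largest differences each way among further pathway genes, any of them called, the 3 genes closest to each member by Pearson r, and defining cell markers. Microglia (7 of 8 measured) and erythrocyte markers (2 of 8) were also summarised; 0 were called in any comparison, and their median mean Dex effects were 0.05 and 0.00. Alternatives covered the block, arrays, probe sets, dim genes, scaling, array weights and threshold.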

Additional observations from a re-analysis of the deposited data

Results flagged for a closer look

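In groups of 5 arrays, the highest or lowest array was set against the range of its group, and a gap beyond Dixon's 95% critical value was taken as unusual. For 5 arrays of equal spread chance gives this in about 1 in 20 groups. Each group here joins arrays of a quieter and a noisier set, so that rate does not apply as it stands. Of the 40 groups (10 genes in 4 groups), 3 had such a gap. Slc2a1 in control Dex replicate 5 was low, at 7.93 against 8.54 to 8.74 on the other 4 arrays (gap 0.759 of the range). Ppp1r3c in Cx30GRko saline replicate 4 was low, at 5.29 against 5.90 to 6.11 (0.744). Pygb in control Dex replicate 4 was low, at 7.00 against 7.57 to 7.70 (0.822). All 3 arrays belong to the noisier set of replicates 4 and 5.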

How the results depend on the processing

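Slc2a1 and Ppp1r3c had a mean Dex effect above 0 under all 32 alternatives run (0.44 to 0.97 and 0.52 to 0.70), and Pdk4 under 31 of 32 (-0.01 to 0.56); the calls were less stable. Of the 10 genes, 1 was called for the mean Dex effect. None (0) was called with the replicate block, with the mean of a gene's probe sets (Slc2a1 adjusted p = 0.104), with all probe sets tested, with quantile normalization again (0.0688), in replicates 4 and 5 alone, and without Cx30GRko Dex replicates 4 and 5. With dim genes left out, at an adjusted p under 0.1 and in replicates 1 to 3 alone 2 were called (Slc2a1 and Ppp1r3c), and with array weights 3 (Pdk4 too, 0.53, adjusted p = 0.0225). Over all genes, 28 of 11090 were called with dim genes left out and 43 of 22180 at an adjusted p under 0.1. In replicates 1 to 3 alone 101 of 22180 were called, and with array weights 129. In control mice 0 were called for Dex over all arrays, 1 with array weights (Ppp1r3c) and 2 in replicates 1 to 3 alone. Leaving out 1 array at a time gave 0 to 2 called for the mean Dex effect. Slc2a1 was then 0.67 to 0.80 and called in 11 of 20 cases. Ppp1r3c was called without Cx30GRko Dex replicate 2, control Dex replicate 5 or control saline replicate 4. The cause was not tested. Of all 1960 values of the 10 genes under alternatives, 102 changed sign, none of them a call, 15 lost a call and 11 gained one.

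Over all genes the mean Dex effect had 33 calls, against 15 with the replicate block, 19 with all probe sets tested, 129 with array weights (0.582%), 101 in replicates 1 to 3 alone, 0 in replicates 4 and 5 alone (2224 at an unadjusted p under 0.05) and 18 to 35 without 1 array. For Dex in Cx30GRko mice 4 genes were called, against 0 to 18 under alternatives, and in control mice 3, against 0 to 58 (array weights, 0.261%). No label says that the replicate numbers pair arrays, and the deviations of same-numbered arrays had r of -0.31 to 0.04 (median -0.09, against -0.11 for other numbers of the same array set). Centring within sets moves these correlations below 0, so they do not settle the pairing. With the replicate block Slc2a1 had an adjusted p of 0.0813. Signals near the lower end of the scale, such as those of the dimmer Slc2a1 probe set, limit what small differences can be seen.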
